A study of Rattus norvegicus with 18 samples.

Results

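The genes described here are 9 genes that mark oligodendrocytes and the myelin they make: Mbp, Mobp, Mog, Mag, Cldn11, Mal and Cnp, whose products build or line the sheath, and Olig2 and Sox10, which control the lineage. All probes carrying those gene names on the array were taken, and none was left out for its values. This gave 13 probes for the 9 genes, out of 41012 probes and 16239 named genes on the array. The genes themselves were chosen with earlier results of these data known. The arrays compared male rats of a high ethanol preferring strain (WHP) with a low ethanol preferring strain (WLP) in 3 brain areas, namely the nucleus accumbens, the hippocampus and the prefrontal medial cortex. All animals of both strains were alcohol-naive and were housed with brothers. Each pool mixed RNA of 3 males of 1 strain in equal parts, and 3 WHP pools were set against 3 WLP pools in each area; every such pool pair was hybridised on 2 arrays with the dyes exchanged, giving 9 pool pairs on 18 arrays. Within an area the pool pairs are biological replicates, per the labels, which leave unsaid whether pools of different areas share rats. The strains differ by selection, so a strain ratio here describes lines of rats that had drunk no alcohol.

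Oligodendrocytes wrap axons of the central nervous system in myelin, a stack of membranes pressed together at their inner faces. Sox10 and Olig2 are transcription factors of the lineage: Olig2 acts from the precursor stage on, and Sox10 switches on myelin genes as the cells mature. Among the products, Mbp and Mobp are small basic proteins that hold the inner faces of compact myelin together, Cnp is an enzyme of the cytoplasmic channels that run through the sheath, Mag is an adhesion molecule facing the axon, Mog sits on the outermost membrane, Cldn11 forms the tight junctions between the layers, and Mal is a membrane protein of lipid rafts. Grey matter areas differ in how many myelinated fibres cross them. In pooled tissue RNA, fewer oligodendrocytes and less myelin RNA per oligodendrocyte cannot be told apart.

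The probes are 60 bases long and are named here by gene and by the position in the transcript at which the scanner files place them. The sequences are shown because probes of 1 gene gave different values below, most of all for Mobp, and because Cnp gave the lowest ratio of any pool pair. On the rat genome build rn4, the Cnp probe lies at chr10:89524880-89524939 on the plus strand, the Mag probe at chr1:85954956-85955015 on the minus strand, the Cldn11 probe at chr2:116627458-116627517 on the minus strand and the Olig2 probe at chr11:31206908-31206967 on the plus strand; these lie within the coding part of their transcripts and are given whole. Both Mobp 619 (chr8:125147253-125147312, plus strand) and Mobp 3049 (chr8:125143743-125143802, plus strand) are given by their first 30 bases, as is Mog 1387 (chr20:1611776-1611835, plus strand). Mobp 619 was designed on another transcript record of the gene than Mobp 3049 and Mobp 74. Mobp 74 spans an intron, from 125123469 to 125135645 on chromosome 8, and its last 30 bases hold an ATG, in capitals.
Cnp 1202: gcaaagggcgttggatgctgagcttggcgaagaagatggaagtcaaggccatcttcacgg
Mag 1970: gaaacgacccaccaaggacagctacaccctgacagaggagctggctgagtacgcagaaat
Cldn11 757: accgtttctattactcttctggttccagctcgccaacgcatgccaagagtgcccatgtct
Olig2 765: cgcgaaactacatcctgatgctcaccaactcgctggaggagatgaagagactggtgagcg
Mog 1387: aggaccttgagaagcaagggtcgagaactg
Mobp 619: caccaaaaatgtgtgttttgaattaacttt
Mobp 3049: tttccacacctagcaggaccacacgatttc
Mobp 74: tacagtaagATGagtcaaaaagtggccaag

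Since the members moved together over the pool pairs, the windows around their transcription starts were read as well. RefSeq windows on build GRCr8, from 250 bases before to 50 after a start, were found for 7 of the 9 genes; Mog and Sox10 had none. The letters ACAAAG, the core that SOX proteins bind, or their reverse complement CTTTGT occurred in windows of 4 of the 7 genes: 8 times in the Mobp window and once each for Cnp, Mag and Mbp. Of 33469 windows of the same length, 18.8% held the motif at least once, 0.224% at least 3 times, and 3 windows held it at least 8 times. The E-box CAGCTG, which reads the same on both strands and does not overlap those letters, occurred in the Cnp window and in 1 of the Mbp windows, against 15.1% of all windows. A match describes the letters of the window and is not a binding site. The Mobp window, where the repeats stand in the part far from the start, and the Cnp window are shown with ACAAAG or CTTTGT in capitals.
Mobp, chr8:128746982-128747281, plus strand: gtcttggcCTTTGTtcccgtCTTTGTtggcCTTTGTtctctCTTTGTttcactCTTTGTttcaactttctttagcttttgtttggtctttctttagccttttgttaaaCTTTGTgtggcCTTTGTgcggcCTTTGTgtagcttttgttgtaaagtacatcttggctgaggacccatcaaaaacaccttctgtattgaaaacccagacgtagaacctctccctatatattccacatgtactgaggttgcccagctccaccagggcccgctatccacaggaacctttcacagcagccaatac
Cnp, chr10:86011254-86011553, plus strand: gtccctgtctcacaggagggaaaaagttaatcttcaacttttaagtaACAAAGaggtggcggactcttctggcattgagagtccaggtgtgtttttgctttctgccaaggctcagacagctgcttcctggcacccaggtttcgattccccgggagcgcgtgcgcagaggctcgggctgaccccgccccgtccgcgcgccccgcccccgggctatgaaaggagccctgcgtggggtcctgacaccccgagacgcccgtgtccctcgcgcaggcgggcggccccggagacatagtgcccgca

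All 13 probes were well above background in the channels of both strains on 18 of 18 arrays, except Olig2 765, which was so on 17 in each strain's channel, and none was saturated. The median signal of the green channel was 78.2 to 100.4 units on the arrays of the nucleus accumbens and prefrontal medial cortex, which shared slides and the first scan session, and 155 to 209 on the hippocampal arrays, which had slides and a scan session of their own, so that hippocampus and session cannot be told apart. In 2 pool pairs the dye-swapped arrays did not repeat each other over all probes: the correlation of their ratios was 0.027 for nucleus accumbens pair 3 and -0.020 for hippocampus pair 2, against 0.28 for hippocampus pair 3 and 0.46 to 0.64 for the other pairs. As a check of the tissue labels, Slc17a7, a glutamate transporter of cortical neurons, had a log2 difference of -3.09 between nucleus accumbens and prefrontal medial cortex, so it was lower in the accumbens. But 0 of 10 striatal markers, among them dopamine receptor genes, passed the test between these areas: their mean log2 level was 10.23 to 11.07 in the accumbens pairs and 10.23 to 10.91 in the prefrontal pairs, which overlap, against 8.37 to 8.73 in the hippocampal pairs.

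The array pairs with poor repeats carried the widest single-array member ratios. On the 2 arrays of nucleus accumbens pair 3, the log2 ratio of WHP over WLP was -2.79 and -0.06 for Mbp 740, -2.56 and 0.06 for Mbp 391, -2.69 and -0.46 for Cnp, and -1.75 and -0.40 for Mobp 619. In the same hybridisations Mag gave -0.22 and -0.26, and Mog 696 gave -0.57 and -0.40. Mal gave -1.41 and -0.37, and Mog 1387 gave 0.18 and -0.70, with opposite signs. Thus Mbp, Cnp, Mobp 619 and Mal were far lower for WHP on array 1, Mag and Mog 696 were close on both, and Mog 1387 differed the other way. In hippocampus pair 2, Mbp 740 gave -0.34 and 2.28 and Cnp gave -0.37 and 1.74, while Mobp 74 gave 0.29 and 0.22. The sign was the same on both arrays for 7 of 13 probes in each of these pairs, for 6 in hippocampus pair 3, for 7 in nucleus accumbens pair 2, and for 11 to 13 in the remaining pairs. Strain values are therefore given with and without the pairs whose arrays correlated under 0.1.

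**Figure D1:**
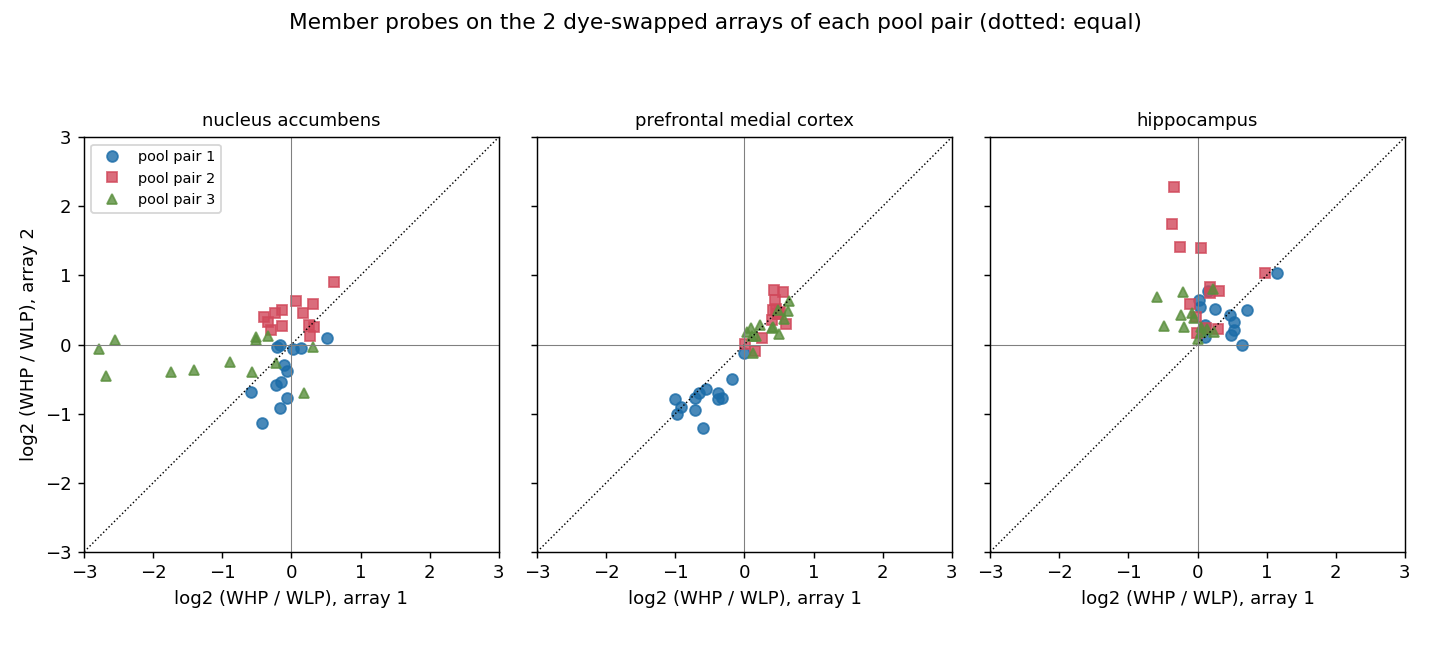
Log2 ratio of WHP over WLP of the 13 member probes on array 1 (x axis) and array 2 (y axis) of each dye-swapped pool pair, 1 panel per area and 1 symbol per pool pair; the dotted line marks equal values. The prefrontal points lie near the line, while nucleus accumbens pair 3 reaches -2.79 on array 1 alone and hippocampus pair 2 reaches 2.28 on array 2 alone.

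The first question was whether the myelin genes differed between the strains in the nucleus accumbens. No member probe passed limma's moderated test there after Benjamini-Hochberg adjustment over all 30217 detected probes, of which 0.252% passed; the smallest adjusted p of a member was 0.249, and 2 member probes, Cnp and Olig2, had an unadjusted p under 0.05, as had 16.3% of all probes. Cnp, the channel enzyme, had log2 ratios of -0.64, -0.04 and -1.57 in the 3 pool pairs, a mean of -0.75 (SE 0.28, 95% interval -1.38 to -0.12). All 3 Cnp values were below 0, but the second was close to 0 and the third came from the pair whose arrays disagreed. Olig2 lay on the other side of 0, with ratios of 0.04, 0.07 and 0.14, and the 2 arrays of each pair had opposite signs for it. For Mbp 740 the ratios were -0.54, 0.00 and -1.43, and for Mobp 619 they were -0.78, 0.19 and -1.07. Mag, Mog 1387 and Sox10 stayed nearer 0 in the third pair: Mag gave -0.35, 0.35 and -0.24, Mog 1387 gave -0.41, 0.45 and -0.26, and Sox10 gave -0.12, 0.20 and -0.20. Cldn11 was the member highest in WHP, at 0.30, 0.76 and -0.11. The median over the 13 probes was -0.22, 0.20 and -0.49 in pairs 1, 2 and 3, so the pairs did not run one way. Without pair 3 the mean ratios of the 13 probes ran from -0.34 to 0.53 with a median of 0.02, and 7 of 13 were above 0.

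In the prefrontal medial cortex the arrays of each pair repeated well and the pool pairs went opposite ways. Pair 1 had 0 of 13 probes above 0, with a median log2 ratio of -0.68; pair 2 had 13 of 13 above 0, with a median of 0.46; and pair 3 had 12 of 13, with a median of 0.32. Mbp 391 gave -0.99, 0.48 and 0.11, which is 1.99-fold lower for WHP in pair 1 and 1.40-fold higher in pair 2. Mag gave -0.84, 0.46 and 0.33, and Mog 696 gave -0.59, 0.65 and 0.47. In pair 1, Cldn11 stood at -0.55 and Sox10 at -0.61. Olig2 moved least, between -0.06 and 0.00. These opposite pairs left means near 0 with wide intervals, for example -0.02 for Mag (95% interval -0.54 to 0.51) and 0.18 for Mog 696 (-0.35 to 0.71). No member passed the test, with a smallest adjusted p of 0.887 and no unadjusted p under 0.05; 0.0905% of the 28741 probes passed, and 8.45% had an unadjusted p under 0.05.

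In the hippocampus all 13 probes had a mean ratio above 0, with a median of 0.34, and 12 of the 13 were above 0 in each of the 3 pool pairs. None passed the test: the smallest adjusted p was 0.579, 1 member probe had an unadjusted p under 0.05 against 6.68% of all probes, and 0.25% of the 34752 probes tested passed. Cldn11, the tight junction gene, had the largest mean ratio, with 1.09, 0.46 and 0.51 in the 3 pairs, a mean of 0.69 (SE 0.24, 95% interval 0.14 to 1.24, adjusted p = 0.579 by limma). Mog 1387 gave 0.32, 1.01 and 0.28, and Mbp 740 gave 0.46, 0.97 and 0.03. Sox10 was the most even, at 0.20, 0.19 and 0.21, with Olig2 at 0.11, 0.08 and 0.04. Cnp alone fell on both sides of 0, with 0.29, 0.68 and -0.11. The pair means hide disagreeing arrays: in pair 3 the member median was -0.06 on 1 array and 0.27 on the other, and in pair 2 it was 0.05 and 0.78. Without pair 2 the 13 means ran from 0.07 to 0.80 with a median of 0.25, and 13 of 13 were still above 0. The probes share arrays and cells, so the 13 probes of 1 sign are not 13 separate observations.

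**Figure D2:**
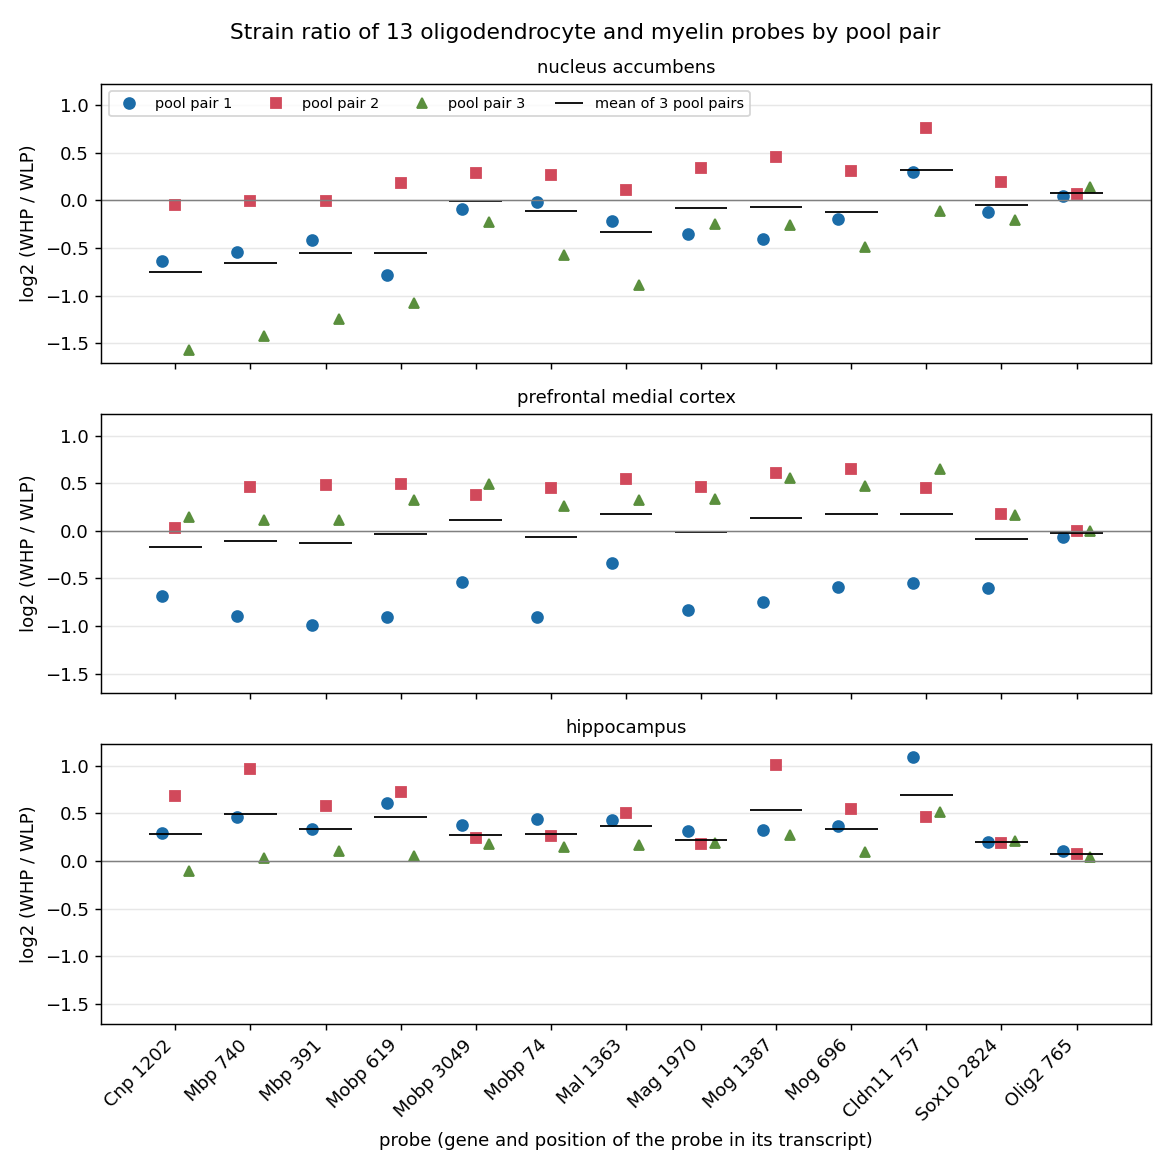
Log2 ratio of WHP over WLP (y axis) of each member probe (x axis) in the 3 pool pairs of each area, with a line at their mean; each symbol is the mean of 2 dye-swapped arrays. Prefrontal pair 1 lies below 0 for 13 of 13 probes and pair 2 above 0 for 13 of 13, and in the hippocampus the points lie above 0 except Cnp in pair 3.

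Averaged over the 3 areas, the member ratios lay near 0, with a median of 0.04 over the 9 genes and 6 of 9 above 0. Cldn11 was the exception in size, with a mean over the areas of 0.40 (SE 0.14, 95% interval 0.08 to 0.71) and an adjusted p of 0.184 by limma, which missed the threshold; 7 of its 9 pool pairs were above 0. Markers of meningeal fibroblasts moved in part with Cldn11: their median ratio was 1.22, 2.50 and -0.97 in the accumbens pairs, where Cldn11 had 0.30, 0.76 and -0.11, and -1.10, -0.24 and 0.87 in the prefrontal pairs, where Cldn11 had -0.55, 0.45 and 0.64. In the hippocampal pairs the markers stood at 1.03, -0.12 and 0.44. Averaged over the areas, 8 of 8 of these markers lay above 0, with a median of 0.51, and 0 passed the test; their part in the Cldn11 ratio was not tested. The Cldn11 mean passed under 2 of 21 alternatives. Its adjusted p by limma was 0.0274 when the arrays were entered singly with the pool pair as a random block. That setting raised the count over all probes from 810 to 2056. Without prefrontal pair 1, where Cldn11 had -0.55, the log2 ratio was 0.52 with an adjusted p of 0.0397 by limma. Under the other 19 it did not pass, with adjusted p up to 0.459 by limma. Without the uncorrelated pairs the ratio was 0.51 with an adjusted p of 0.25 by limma. In the main fit, 2.85% of all 28377 probes detected in every area passed the test of the mean and 17.8% had an unadjusted p under 0.05. Of the member probes 0 of 13 passed and 1 had an unadjusted p under 0.05. Cnp had the lowest mean, at -0.21 (95% interval -0.57 to 0.15). The difference of the strain ratio between areas was largest between hippocampus and nucleus accumbens: 1.15 for Mbp 740, 1.04 for Cnp, 1.02 for Mobp 619 and 0.70 for Mal, on the log2 scale. These 4 probes had an unadjusted p under 0.05, as had 8.63% of all probes, and their adjusted p was 0.577. For each of the 3 area differences 0% of the probes on the array passed, and no member did; 3.6% of all probes had an unadjusted p under 0.05 between hippocampus and prefrontal medial cortex and 3.33% between nucleus accumbens and prefrontal medial cortex, with no member among them. The hippocampus minus nucleus accumbens median over the 13 probes was 0.46 with all pairs, 12 of 13 being above 0, and 0.27 without the uncorrelated pairs, with 13 of 13 above 0.

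What the members shared was the pattern over pool pairs. Over the 9 pool pairs, Pearson's r between the ratios of any 2 of the 12 probes other than Olig2 was 0.66 to 0.98, with a median of 0.88 over 66 combinations. Without the 2 uncorrelated pool pairs it was 0.74 to 0.99, with a median of 0.93. Some of these combinations are of probes of the same gene, among them the 0.98 over all pairs, for Mbp 740 with Mbp 391. The 2 probes in each comparison share arrays, RNA and dye normalisation, so these values are a description. Each probe was also set against the mean ratio of the other 8 genes, each by its brightest probe, with its own gene left out. That r was 0.98 for Mobp 619, 0.97 for Mbp 391, 0.96 for Mog 696, 0.90 for Cnp, 0.86 for Mag and 0.81 for Cldn11, which ran higher than the rest in the accumbens. Without the uncorrelated pairs these 6 values were 0.97, 0.96, 0.95, 0.95, 0.98 and 0.86. The dim Olig2 probe had the lowest r, 0.11 over all pairs and 0.61 without the uncorrelated pairs, and its ratios spanned only -0.06 to 0.14. Its log2 level was 6.7 to 7.0, and the offset of 50 units added to all signals draws the ratio of so dim a probe toward 0. Of the 28377 probes detected in all areas, 113 (0.398%) had r of at least 0.9 with the mean of all 9 genes, the members' own probes counted among them, and the median r over all 28377 was 0.04.

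The 10 genes outside the oligodendrocyte lists whose brightest probe followed the members' mean most closely, of 12436 genes ranked, were Fnbp1 (r = 0.99), Nipa1 (0.98), Tubb4a (0.97), Abcg1 (0.96), Fth1 (0.96), Tcp11l2 (0.96), Kif13a (0.96), Sh3glb1 (0.95), Rnd2 (0.94) and Syngr2 (0.94). Without the uncorrelated pairs their r was 0.91 to 0.98. Tubb4a encodes a tubulin and Fth1 the heavy chain of the iron store ferritin. Their swings were smaller than those of the member probes other than Sox10 and Olig2. Fnbp1 went from -0.56 in nucleus accumbens pair 3 to 0.35 in hippocampus pair 2, a wider swing than that of Sox10 or Olig2. Tubb4a went from -0.37 in prefrontal pair 1 to 0.24 in hippocampus pair 1, and Fth1 from -0.42 in prefrontal pair 1 to 0.18 in prefrontal pair 2.

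Other genes of the lineage were read in the same pairs. Of 26 further myelin sheath and junction genes, 0 passed the strain test in any area or on average; their median ratio was below 0 in prefrontal pair 1 (-0.38, with 2 of 26 above 0) and above 0 in prefrontal pair 2 (0.31, 25 of 26). In the hippocampus 26 of 26 had a mean ratio above 0, with a median of 0.15, and in the nucleus accumbens 6 of 26, with a median of -0.09. Among 11 enzymes of myelin lipids and metabolites, 0 passed, with medians of -0.31 in prefrontal pair 1 and 0.25 in pair 2. The 14 further lineage regulators had medians of -0.16 to 0.11 over the 9 pairs, and 0 passed. Of 6 detected precursor markers, 1 passed on average over the areas, against 2.85% of all 28377 probes. Vcan, a proteoglycan of the matrix, was higher in WHP by 0.16 on the log2 scale (SE 0.03, adjusted p = 0.0458 by limma). With trended and robust variances 0 probes of the array passed this test, so the Vcan call was lost. Over the 9 pool pairs, r of the list median with the members' mean was 0.94 for the sheath list, 0.92 for the enzymes, 0.88 for the receptors, 0.85 for the regulators and 0.79 for the precursor markers.

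Markers of other cells were read in the same pairs. In prefrontal pair 1, where the members were lowest in WHP with repeating arrays, the median ratio was 0.22 for 9 neuron markers, -0.28 for 10 astrocyte markers, -0.97 for 10 striatal markers, -0.55 for the thalamus and septum markers and -1.10 for 8 markers of meningeal fibroblasts. In prefrontal pair 2, where the members were high, these medians were -0.08, -0.11, 0.37, 0.41 and -0.24, with choroid plexus markers at 1.76. In prefrontal pair 3, with members at 0.32, the striatal markers stood at 0.45, so that in this area they had the sign of the members in all 3 pairs. Hippocampus pair 1 had choroid plexus markers at 1.65. Over the 9 pairs, r with the members' mean was -0.74 for neuron markers, 0.69 for astrocyte markers, 0.68 for microglia markers, 0.60 for endothelium markers, 0.56 for thalamus and septum markers, 0.47 for meningeal markers, 0.46 for choroid plexus markers and 0.15 for striatal markers. Markers of peripheral myelin stayed between -0.11 and 0.12 in all 9 pairs, with r of -0.26. The part of tissue composition in the members' ratios was not tested.

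**Figure D3:**
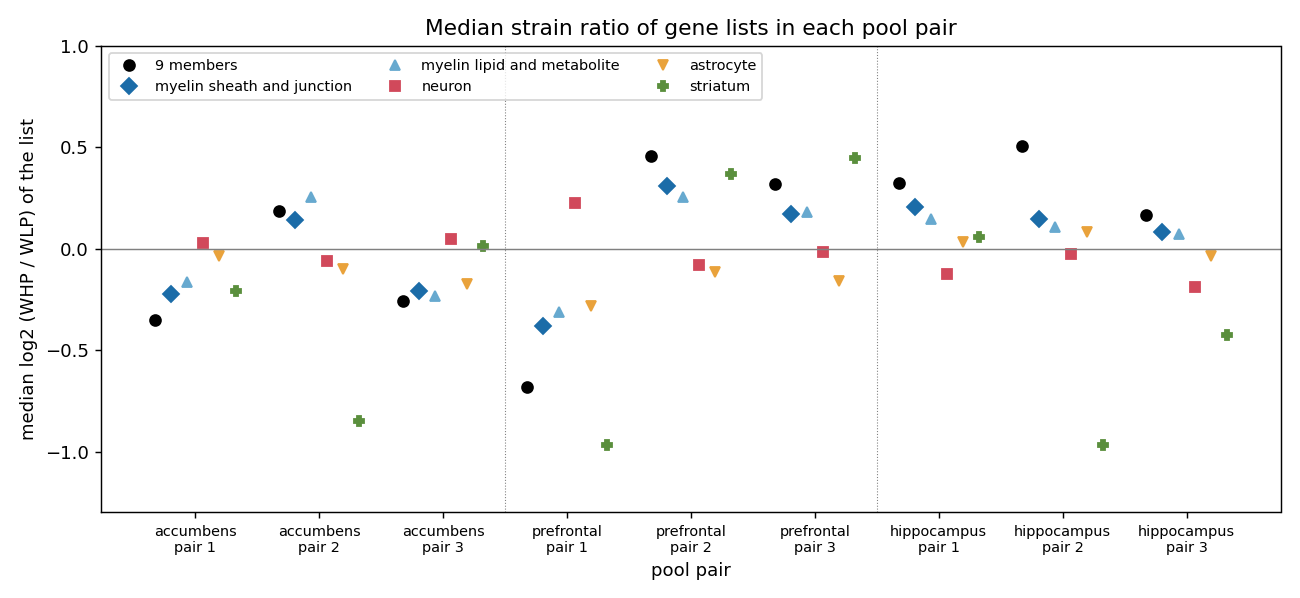
Median log2 ratio of WHP over WLP (y axis) of 6 gene lists in each of the 9 pool pairs (x axis), each pair being the mean of 2 dye-swapped arrays. The members, the sheath genes and the myelin enzymes change side together, from -0.68, -0.38 and -0.31 in prefrontal pair 1 to 0.46, 0.31 and 0.25 in prefrontal pair 2, while the neuron markers lie at 0.22 and -0.08.

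The second question was how the level of these transcripts differed between the areas, taking the mean of both strains' channels on the log2 scale. All 9 genes were higher in the nucleus accumbens than in the prefrontal medial cortex, which were hybridised on the same slides, and 12 of 13 probes passed the test as higher, none as lower, against 25.3% higher and 24.3% lower of 30456 probes tested. The median difference of the 13 probes was 1.20 on the log2 scale, against 0.01 for all probes. Within the 3 slides, 39 of 39 differences were above 0, with a median of 1.35 on slide 1, 0.96 on slide 2 and 0.87 on slide 3. How often probes of the whole array kept the same sign over the slides was not computed. Mobp 74 differed most, with 12.13, 11.88 and 11.58 in the accumbens pairs and 10.20, 10.40 and 10.23 in the prefrontal pairs, a 3.01-fold difference (log2 difference 1.59, SE 0.12, adjusted p = 1.33e-05 by limma). Mag stood at 12.85, 12.65 and 12.40 against 11.12, 11.32 and 11.03, which is 2.78-fold (adjusted p = 1.04e-05). Sox10, the regulator, stood at 12.16, 11.94 and 11.87 against 11.09, 11.06 and 10.99, which is 1.92-fold (adjusted p = 1.02e-05). Among the sheath proteins, Mbp 740 was 2.56-fold and Mog 1387 2.42-fold higher, Mal was 2.15-fold and Cldn11 1.78-fold higher, and Cnp was the smallest of those that passed, at 1.72-fold.

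The call for Cnp was lost under some settings, with an adjusted p of 0.0857 when arrays were centred on their medians and 0.197 when the WHP channel was read alone. The dim Olig2 probe differed by 0.13 (SE 0.05), with an adjusted p of 0.0506 that passed under 6 of the alternatives. Centring each array on its median left 1752 of the 30456 probes past the test in place of 15114, 62.2% of them higher in the accumbens in place of 51%, and 11 of 13 member probes still passed.

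In the hippocampus the members split by probe. All 13 probes had lower means than in the nucleus accumbens, with a median difference of -0.75; 11 of 13 passed as lower and 0 as higher, against 35.5% lower and 38% higher of 35127 probes. Mbp 740 and Cnp differed most. Cnp had 9.13, 8.90 and 9.13 in the hippocampal pairs against 11.43, 11.17 and 10.74 in the accumbens, 4.16-fold lower (adjusted p = 1.08e-06 by limma). Mbp 740 had 12.60, 12.34 and 12.53 against 15.24, 14.96 and 14.27, 5.04-fold lower (adjusted p = 3.50e-06). Mbp 391 was 3.59-fold lower and Mobp 619 was 2.82-fold lower. The other probes that passed differed less: Mobp 74 was 1.73-fold lower, Mal 1.72-fold, Mag 1.68-fold, Cldn11 1.46-fold, Mog 696 1.42-fold, Sox10 1.36-fold and Olig2 1.19-fold. Mog 1387 (log2 difference -0.20, 95% interval -0.48 to 0.09) and Mobp 3049 (-0.10, -0.42 to 0.22) did not pass, although Mog 1387 did without hippocampus pair 3 (-0.33, adjusted p = 0.0308). With arrays centred on their medians the count fell to 5 of 13, namely Cnp, Mbp 740, Mbp 391, Mobp 619 and Olig2. Those 5 passed as lower. Over all 35127 probes the count of calls in both directions together fell from 25796 to 14320 under that setting. The share of all probes called lower there is not given here, so the 5 of 13 has no like share beside it. Sox10, Mog 1387 and Mobp 3049 changed sign, to 0.05, 0.32 and 0.42, without passing the test. With the WHP channel alone 7 of 13 passed, for which no share of all probes is given here, and Mog 1387 and Mobp 3049 lay at 0.11 and 0.04.

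Against the prefrontal medial cortex, 8 of 13 probes were higher in the hippocampus and 2 lower, against 37.1% higher and 33.2% lower of 34905 probes. Cnp was 2.41-fold lower (log2 difference -1.27, SE 0.14, adjusted p = 3.22e-05 by limma) and Mbp 740 1.97-fold lower (adjusted p = 0.00146). In the other direction, Mobp 3049 was 2.37-fold higher (adjusted p = 3.26e-05), Mog 1387 2.11-fold, Mobp 74 1.74-fold, Mag 1.66-fold, Sox10 1.41-fold, Mog 696 1.40-fold, Mal 1.25-fold and Cldn11 1.22-fold. Of the rest, Mbp 391 was at -0.36, Mobp 619 at -0.30 and Olig2 at -0.12 on the log2 scale, none past the test; without the uncorrelated pairs Mbp 391 and Mobp 619 passed as lower (adjusted p = 0.00815 and 0.0468), and with arrays centred on their medians both changed sign, to 0.28 and 0.31. The call for Mbp 740 was lost when arrays were centred on their medians (-0.34, adjusted p = 0.417) and in the WHP channel alone (-0.67, adjusted p = 0.131). The call for Cldn11 was lost without hippocampus pair 2 or 3 (adjusted p = 0.0561 and 0.057) and in the WLP channel alone, and that for Mal without hippocampus pair 3 (0.0556) or prefrontal pair 3 (0.067) and in either channel alone. By their means, the order of areas from high to low was nucleus accumbens, prefrontal medial cortex, hippocampus for Cnp and Mbp 740, and nucleus accumbens, hippocampus, prefrontal medial cortex for Mag, Sox10, Mal, Cldn11, Mog 696 and Mobp 74. For Mog 1387 and Mobp 3049 the means had the latter order, with the nucleus accumbens and hippocampus not separated by the test. For Mbp 391, Mobp 619 and Olig2 the means had the order of Cnp, with the prefrontal medial cortex and hippocampus not separated by the test. For Olig2 the nucleus accumbens and prefrontal medial cortex were not separated either.

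Probes of 1 gene gave different area patterns. The 3 Mobp probes agreed between nucleus accumbens and prefrontal medial cortex, at 1.20, 1.34 and 1.59 for Mobp 619, 3049 and 74, with overlapping 95% intervals. Between hippocampus and nucleus accumbens they gave -1.50 (95% interval -1.86 to -1.13), -0.10 (-0.42 to 0.22) and -0.79 (-1.07 to -0.51), and these intervals do not overlap. Mobp 619 also went with Cnp and Mbp in nucleus accumbens pair 3, at -1.07, where Mobp 3049 was at -0.23. The hippocampal arrays had slides and a scan session of their own, so area and session cannot be told apart in this split. The probes lie in different parts of the gene, and the part of transcript form in these differences was not tested.

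**Figure D4:**
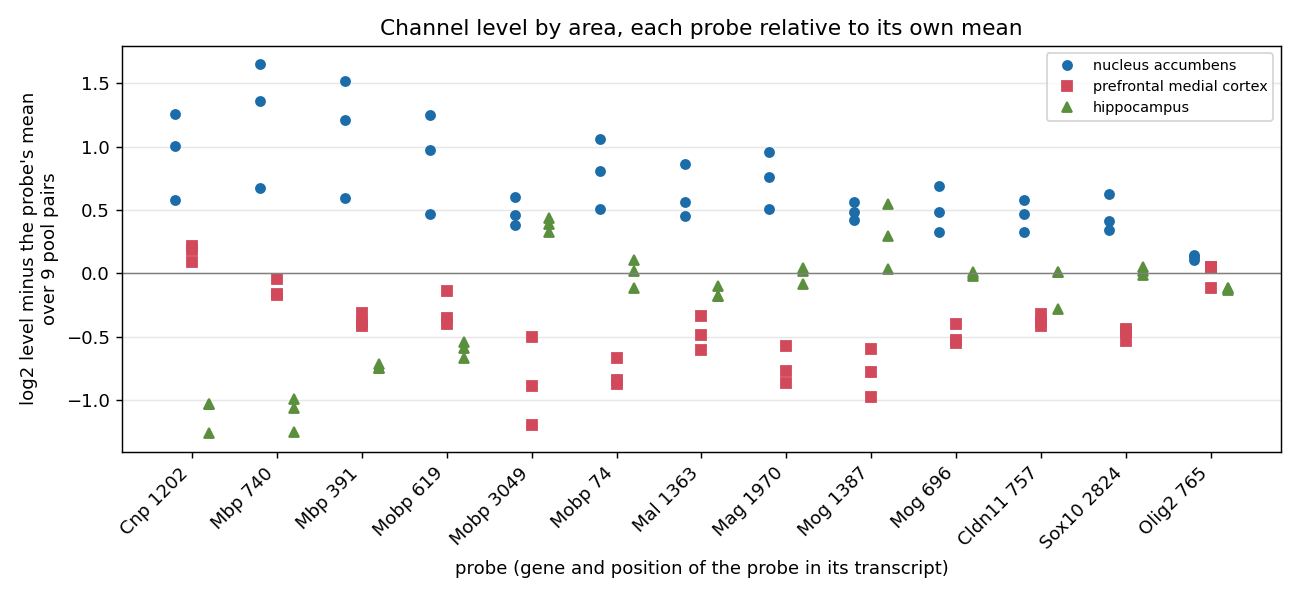
Log2 channel level of each member probe in the 3 pool pairs of each area (y axis), as the difference from the probe's own mean over 9 pool pairs, so that probes are not compared in brightness. The accumbens points lie above the prefrontal points, and how often this holds over all probes was not computed. The hippocampal points are lowest for Cnp, Mbp, Mobp 619 and the dim Olig2. They lie between or near the accumbens points for Mag, Mog, Sox10 and the other Mobp probes.

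**Figure D5:**
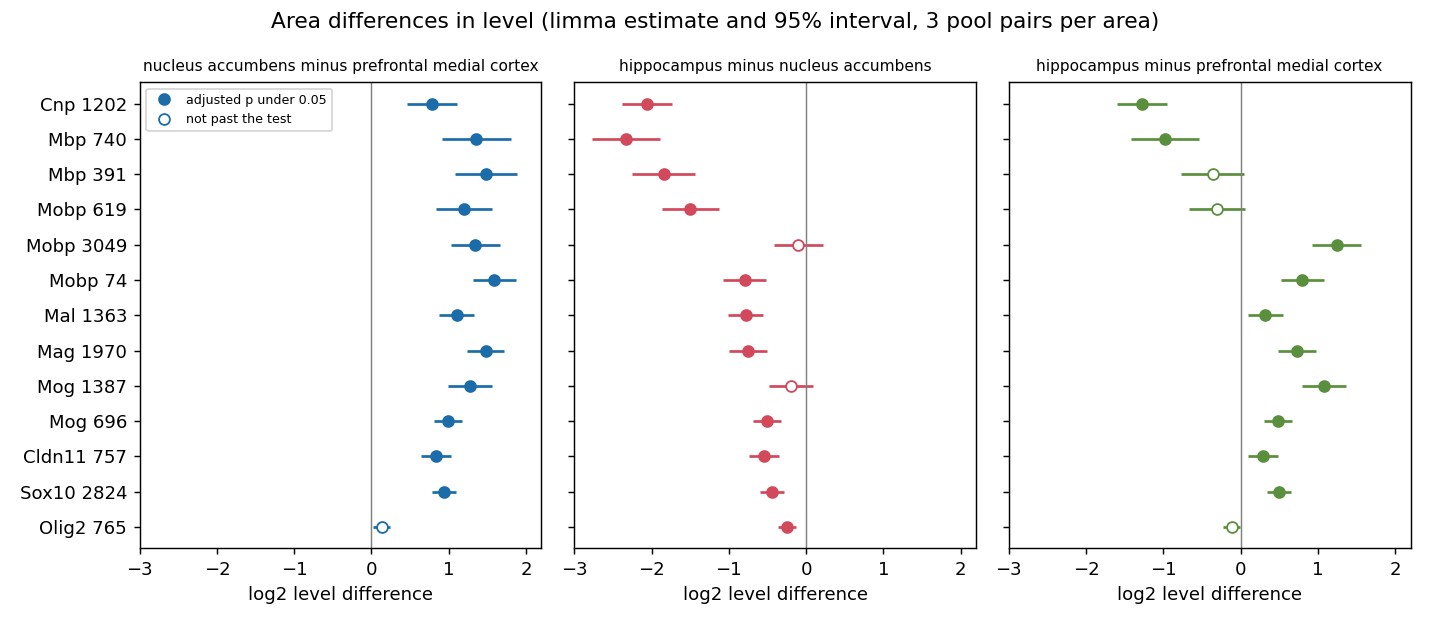
Log2 level difference between areas for each member probe, as limma estimates with 95% intervals over 3 pool pairs per area; filled points passed the test. Cnp and Mbp 740 lie lowest in both hippocampal panels, at -2.06 and -2.33 against the nucleus accumbens, while Mobp 3049 lies at -0.10 and at 1.25.

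Other genes of the lineage are given by list, to be read against the 25.3% of all probes that passed as higher and the 24.3% that passed as lower in the nucleus accumbens than in the prefrontal medial cortex. Of the 26 sheath and junction genes, 22 passed as higher and 1 as lower in the nucleus accumbens than in the prefrontal medial cortex (median 0.77), led by Opalin, a membrane protein of the sheath (1.62), Hapln2, a matrix link protein of the nodes (1.48), Ppp1r14a (1.36) and Cryab, a small heat shock protein (1.32). Of the 11 enzymes 9 were higher and 0 lower, led by Klk6 (1.20), Enpp6 (0.98), Elovl1 (0.86) and Qdpr (0.84). Of the 14 regulators 5 were higher, a share near that of all probes, and 1 lower, with Nkx6-2 at 1.23, Tcf7l2 at 0.96, Myrf, which drives myelin genes, at 0.66 and Sox6 at 0.43. Of 6 precursor markers 5 were higher, with Cspg4, the NG2 proteoglycan, at 0.63 and Vcan at 0.60. Of 11 receptors and signals 8 were higher, with Lpar1 at 1.62, Gpr37 at 1.16 and S1pr5 at 1.14, and 1 was lower: Lingo1, an inhibitor of myelination that neurons also express, at -1.69. In the same comparison 6 of 9 neuron markers passed as lower and 1 as higher, with mean log2 levels of 12.45 to 12.63 in the accumbens pairs and 13.09 to 13.14 in the prefrontal pairs, and 5 of 7 thalamus and septum markers passed as higher (median 1.05), Tcf7l2 being shared with the regulator list. Their part in the members' difference was not tested.

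Between hippocampus and prefrontal medial cortex, where 37.1% of all probes passed as higher and 33.2% as lower, 18 of the 26 sheath genes were higher and 4 lower (median 0.63), with Opalin at 1.75, Bcas1 at 1.64, Ninj2 at 1.24 and Ermn, a cytoskeletal protein of the sheath, at 1.20. Among the enzymes 6 of 11 were higher and 1 lower, with Enpp2 at 1.77, Klk6 at 1.61, Car2, a carbonic anhydrase, at 1.40 and Aspa, which splits N-acetylaspartate, at 1.34. Enpp2 is also a choroid plexus gene, and 4 of 8 choroid plexus markers passed as higher in this comparison. The enzyme and choroid plexus counts are small, and neither share is far from that of all probes. Against the nucleus accumbens, where 35.5% of all probes passed as lower and 38% as higher, 13 of the 26 sheath genes were lower in the hippocampus and 5 higher (median -0.21), led by Sirt2, a deacetylase of the sheath (-1.37), Cd9 (-1.03) and Ndrg1 (-0.82), with Nfasc, an adhesion protein of the node region, at 0.70. Sirt2 and Cd9 were also lower than in the prefrontal medial cortex, at -0.77 and -0.57, as Cnp and Mbp 740 were. Between nucleus accumbens and prefrontal medial cortex Sirt2 passed as higher (0.60), and Cd9 was at 0.47 with an adjusted p of 0.0541 by limma. Between hippocampus and nucleus accumbens, 8 of 10 microglia markers passed as lower and 1 as higher, and 6 of 8 choroid plexus markers as higher; their part in the members' difference was not tested. Among the regulators, St18 (0.88 against the nucleus accumbens) and Nkx2-2 (0.54) were higher in the hippocampus, and Hes5 (-1.29) and Id2 (-0.98) were lower.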

How the data were processed

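The authors' scanner files of 18 two-colour Agilent arrays hold spot intensity values (mean signal and median local background per channel), made with Feature Extraction 10.10.1.1, per the file headers. Mean signals were corrected by normexp (offset 50), loess-normalised within arrays with control spots at weight 0, turned to WHP over WLP, and averaged over spots and over the 2 arrays of a pool pair. Limma 3.58.1 (R 4.3.3) fitted 1 mean per area (lmFit, eBayes), adjusted by Benjamini-Hochberg over probes well above background in 1 strain's channel on at least 4 of 6 arrays. Levels were scaled between arrays by Aquantile. Flags of the scanner (coded values, deposited as other numbers) gave detection. The authors' deposited table of log2 ratios served as an alternative; its columns had medians of -0.011 to 0.022 and correlated at 0.39 to 0.84 with the scanner ratios turned to WHP over WLP, and its scaling is not given in the sources used here. The genes and lists were chosen with earlier results of these data known. Named are all members, up to 4 genes past a test per oligodendrocyte list and comparison by size (a selection between hippocampus and the other areas, with Sirt2, Cd9 and Slc17a7 followed after their values were seen), and the 10 genes most alike; lists of other cells are given by counts. Probe sequences come from the scanner files and windows from RefSeq. The fit was tested on simulated data. Precision is limited by 3 pool pairs per area, and p-values measure only the spread between these pools.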

Additional observations from a re-analysis of the deposited data

Results flagged for a closer look

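Among the 39 sets of 6 arrays (13 probes in 3 areas), 1 held a value far from the rest: Cnp on array 1 of nucleus accumbens pair 3, at a log2 ratio of -2.69, where the other 5 arrays of the area lay between -0.69 and 0.21. Chance flags about 1 in 20 such sets, and the arrays of a pool pair are technical duplicates. No cause was tested.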

How the results depend on the processing

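No member probe passed the strain test in any single area, or for any difference between areas, under the alternatives run; the medians of the 9 genes ranged from -0.33 to 0.03 in the nucleus accumbens, -0.22 to 0.40 in the prefrontal medial cortex and 0.23 to 0.49 in the hippocampus. For the mean over the areas 1 probe, Cldn11, passed when arrays were entered singly, and the count was 0 to 1 when single pool pairs were left out. Median centring within arrays moved the hippocampus minus nucleus accumbens difference of the ratio to 0.25 from 0.61. For levels, array-median centring gave -0.34 between hippocampus and nucleus accumbens with 5 probes past the test, reversed Sox10 to 0.054, and gave 0.66 between hippocampus and prefrontal medial cortex. With the WHP channel alone the 3 level medians were -0.43 (7 probes), 0.42 and 0.93, and with the WLP channel alone -0.90, 0.031 and 1.36. Counts over all probes moved more. For the strain ratio they ran from 0 (trended and robust variances) to 979, 163 and 410 in the nucleus accumbens, prefrontal medial cortex and hippocampus and 2056 for the mean (arrays singly); for levels they fell to 14320, 14480 and 1752 under array-median centring. The number places accumbens and prefrontal pairs on a shared slide, and these same-numbered pairs deviated from their area means with r of 0.17, 0.06 and -0.16. Over all combinations of areas, r of same-numbered pool pairs was -0.38 to 0.17, the lowest for hippocampus and prefrontal pair 1, which share no slide. Whether same-numbered pairs share rats is not known. Each number occurs once in every area, so a replicate block cannot move the area estimates, and the strain medians of -0.08, -0.02 and 0.37 were fixed in advance. Only the tests could change. With the block 0 member probes passed the strain test, the level counts were 11, 10 and 12 of 13, and no count of member calls changed. The level fit without the uncorrelated pairs was chosen after seeing the data. Depth limits Olig2 most, whose signal lay nearest to background.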
